A study of Mus musculus with 6 samples.

Results

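The 37 genes described here encode the machinery by which muscle takes up, stores and burns fatty acids: lipoprotein lipase and fatty acid carriers, acyl-CoA synthetases and thioesterases, the enzymes of mitochondrial beta-oxidation, the perilipins and lipases of the lipid droplet, the uncoupling proteins Ucp2 and Ucp3, and the nuclear receptors Ppara and Ppard. They were chosen by gene symbol from the 27131 genes of the deposited count table, every symbol had 1 row, and all 37 passed the filter on low counts. RNA came from the levator ani/bulbocavernosus (LA/BC) muscle, a pelvic muscle that depends on androgens, of mice killed at 14 weeks on standard chow. One group was wild type (WT, 3 mice) and the other carried the genotype 113Q (3 mice), in a knock-in model of spinal and bulbar muscular atrophy (SBMA), a motor neuron and muscle disease caused by an expanded glutamine tract in the androgen receptor. The labels name no agent for either group and state neither strain nor sex, and each library came from 1 mouse. The question is which genes of fat handling differ between these muscles.

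Beta-oxidation is a cycle of dehydrogenation, hydration, a further dehydrogenation and thiolytic cleavage that shortens an acyl-CoA inside the mitochondrion and releases acetyl-CoA. Electrons from the first dehydrogenation reach the respiratory chain through the electron transfer flavoprotein (ETF), and those from the other dehydrogenation through NADH. Fatty acids that are not burned are stored as triglyceride in droplets coated by perilipins, and oxidative fibres are the main site of both storage and use in skeletal muscle. PPAR receptors bind fatty acids and induce many of these genes, together with a retinoid X receptor, at paired AGGTCA-type sites.

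Summed estimated counts per library ranged from 43581087 to 73873481. Scaling factors calculated by the trimmed mean of M values (TMM) were 0.768 to 0.794 in WT mice and 1.26 to 1.32 in 113Q mice, so scaling moves with genotype. Levels are given as TMM-scaled CPM, for which each count was divided by the library total multiplied by the TMM factor. The scaled libraries therefore do not sum to a common total. The alternative called library totals alone leaves the TMM factor out. With library totals alone the all-gene median log2 fold change moved by 0.72, and every change is therefore given relative to the other genes. By library totals, the 37 genes together held 0.577%, 0.525% and 0.577% of the counts in WT and 0.813%, 0.822% and 0.809% in 113Q. On that scale the median log2 fold change was 0.69 for these genes and 0.73 for all genes tested. Skeletal actin Acta1 was abundant in every library but lower in 113Q, at 32250 to 42330 CPM in the WT mice against 6464 to 10360 in 113Q mice. The summed level of 8 myofibre markers was 156900 to 181600 CPM in the WT mice against 40870 to 49310 in 113Q mice. All 8 were called lower (median log2 fold change -1.47, and -0.75 with library totals alone). Their part in the changes below was not tested. Other tissue was also present: the summed level of 8 white adipocyte markers was 212.9 to 692.5 CPM in the WT mice against 209.2 to 420.7 in 113Q mice, and that of 6 smooth muscle markers 364.1 to 785.6 and 1237 to 2632 CPM. Much of the adipocyte sum came from Fabp4. It was at 246.2, 186.2 and 302.1 CPM in the WT mice against 131.1, 149.5 and 178.3 in 113Q mice. Epcam, an epithelial marker, ranged from 0 to 3.83 CPM among WT mice and from 0 to 10.2 among 113Q mice.

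The genes of fat handling did not move as 1 block. In 113Q muscle 8 genes rose, 12 fell and 17 stayed short of the threshold (quasi-likelihood test in edgeR, adjusted p below 0.05 over all 16960 genes tested). The table as a whole gave 34.6% of genes called, 16.5% higher and 18.1% lower, against 8 of 37 and 12 of 37 here. The median log2 fold change of the 37 genes was -0.03, beside 0.01 for all genes tested. With library totals alone, these medians were 0.69 and 0.73, 27 genes were higher and 1 was lower, and the corresponding shares of all genes were 64.9% higher and 4.19% lower. The 8 genes that rose were Plin5, Ucp2, Acot1, Acsl3, Acot2, Plin3, Plin2 and Acadl. Those that fell were Lpl, Acsl6, Etfb, Acsl1, Echs1, Acat1, Plin4, Etfa, Eci2, Etfdh, Hadh and Hadhb, of which 2, Lpl and Acsl6, stayed below 0 with library totals alone.

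**Figure D1:**
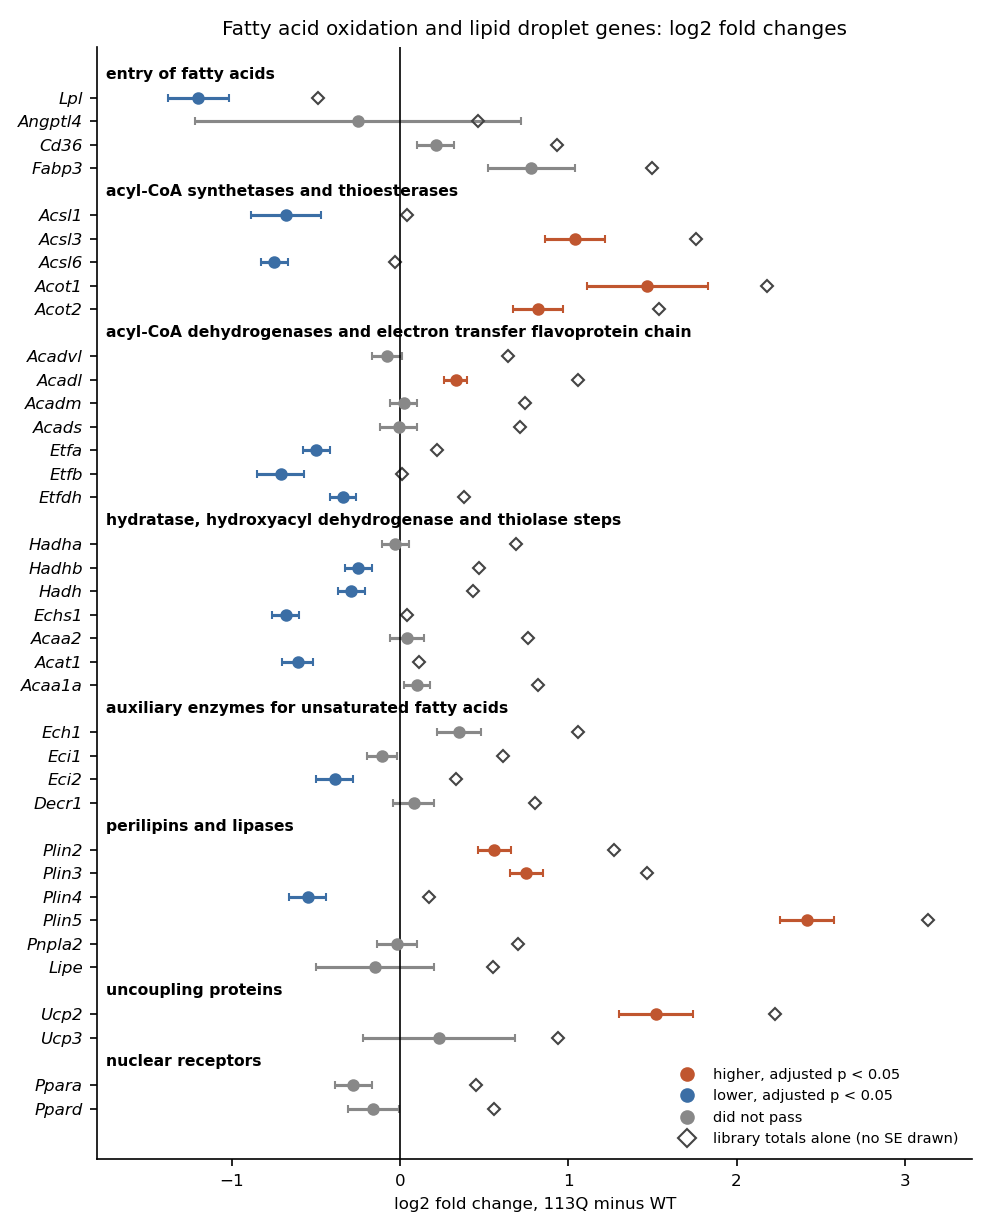
Log2 fold change (113Q minus WT, x axis) of the 37 genes, grouped by role. Filled points are TMM-scaled estimates with standard errors, coloured by call, and open diamonds are the estimates with library totals alone. Plin5 stands furthest to the right at 2.42 and Lpl furthest to the left at -1.20, and the diamonds lie to the right of the points throughout.

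All 4 perilipins changed. Perilipins coat the lipid droplet and control access of lipases to it. Plin5 is the perilipin of oxidative tissues that links droplets to mitochondria, and its level was 9.001, 6.397 and 9.567 CPM in the WT mice against 40.7, 46.7 and 46.4 CPM in the 113Q mice. Every 113Q library stood far above every WT library, a 5.37-fold rise (log2 fold change 2.42, SE 0.16, adjusted p = 3.15e-05). That placed Plin5 at rank 223 from the top among 16960 genes by log2 fold change. Plin2, the perilipin found on droplets of most cells, was at 24.0, 22.2 and 27.3 CPM in the WT mice against 34.5, 39.3 and 34.3 in 113Q mice and rose 1.47-fold (adjusted p = 0.00435). Plin3, which moves from the cytosol to nascent droplets, rose 1.68-fold from 21.5 ± 1.48 to 36.07 ± 3.395 CPM (SD, n = 3 each; edgeR adjusted p = 0.000852). The groups did not overlap for either gene.

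Plin4, a long perilipin abundant in adipocytes and muscle, went the other way. It was at 539.0, 567.7 and 597.5 CPM in the WT mice against 403.0, 329.3 and 432.4 CPM in the 113Q mice, and fell to 0.683 of its WT level (log2 fold change -0.55, SE 0.11, adjusted p = 0.00648), against a log2 fold change of 0.17 with library totals alone. Per kilobase of the longest annotated coding transcript, mean levels in WT were 98.7 CPM for Plin4, 13.0 for Plin2, 5.89 for Plin3 and 4.19 for Plin5. In 113Q they were 67.4, 19.1, 9.90 and 22.5 CPM per kilobase. Plin5 thus moved from the lowest of these 4 perilipins, Plin1 not included, to the second highest.

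The ratio of Plin5 to Plin4 within a library does not depend on scaling. On the log2 scale it was -5.90, -6.47 and -5.96 in WT and -3.31, -2.82 and -3.22 in 113Q mice, a 7.98-fold change. The exact two-sided permutation test gave p = 0.1, the smallest that 3 against 3 can give, and 0.25 after Benjamini-Hochberg adjustment over the 10 gene pairs compared this way. The ratio of Plin2 to Plin3 was 1.14 in WT mice and 1.00 in 113Q mice, with groups that did not overlap (exact permutation p = 0.1, adjusted 0.25).

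**Figure D2:**
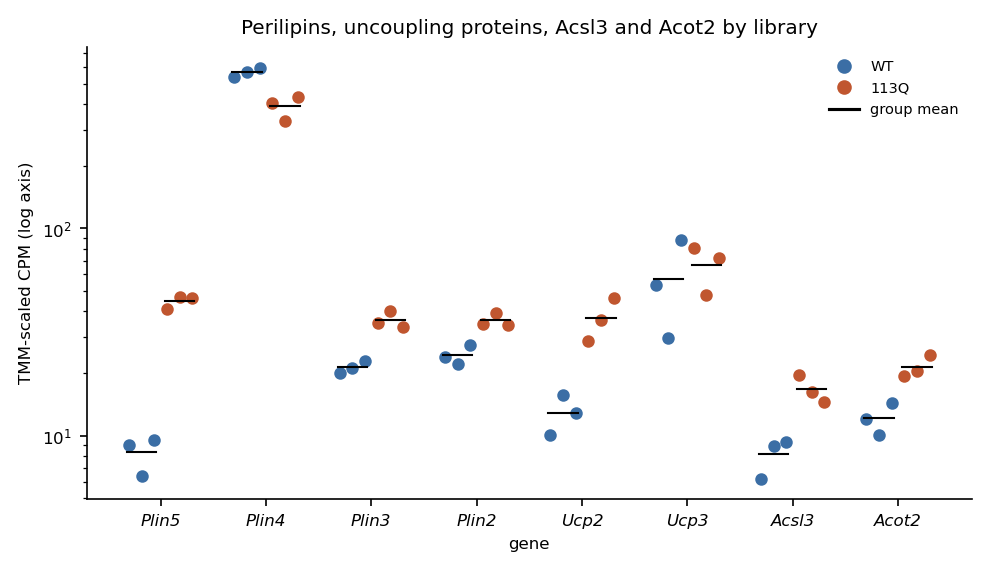
TMM-scaled CPM on a log axis for 8 genes in each library (points) with group means (lines). Plin5 rises from 6.40 to 9.57 CPM in WT to 40.7 to 46.7 in 113Q mice while its neighbour Plin4 is lower in 113Q (log2 fold change 0.17 with library totals alone), and Ucp3 overlaps between groups where Ucp2 does not.

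Plin4 and Plin5 are adjacent genes on the minus strand of mouse chromosome 17, 1.8 kb apart with no coding gene between them, and Plin3 lies 159.9 kb from Plin5 on the same strand. Windows from 250 bases before to 50 bases after the RefSeq start (GRCm38.p6, minus strand) are shown for both neighbours. They are chr17:56117499-56117798 for Plin5, from the upstream of its pair of RefSeq starts, and chr17:56109733-56110032 for Plin4. The pair was picked because these genes moved in opposite directions relative to other genes. With library totals alone the log2 fold changes were 3.14 for Plin5 and 0.17 for Plin4. Capitals mark AGGTCA on either strand, the core letters bound by PPAR and related nuclear receptors.
Plin5: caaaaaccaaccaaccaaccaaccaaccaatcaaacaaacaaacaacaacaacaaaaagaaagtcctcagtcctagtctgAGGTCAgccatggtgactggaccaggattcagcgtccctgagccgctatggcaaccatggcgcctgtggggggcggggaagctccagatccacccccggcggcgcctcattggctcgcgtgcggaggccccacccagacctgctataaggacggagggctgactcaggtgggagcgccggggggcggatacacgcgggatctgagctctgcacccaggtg
Plin4: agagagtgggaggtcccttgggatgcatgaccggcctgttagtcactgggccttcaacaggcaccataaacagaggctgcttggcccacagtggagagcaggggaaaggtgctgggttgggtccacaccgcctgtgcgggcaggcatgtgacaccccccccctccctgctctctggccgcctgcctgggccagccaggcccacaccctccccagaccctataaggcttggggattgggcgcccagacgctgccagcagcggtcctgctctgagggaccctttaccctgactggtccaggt
The Plin5 window holds AGGTCA at 170 bases before the start, and the Plin4 window holds no AGGTCA. Across the 37 windows of the 32 genes found in the RefSeq table, AGGTCA on either strand occurs in 9 (24.3%), beside 16.3% of all 32851 windows. The direct repeat of AGGTCA spaced by 1 base, the PPAR response element, is in 0 of the 37 windows and in 0.0396% of all windows. With the fourth letter of both copies left free, a search that includes the strict repeat, it is in 0 and 0.381%. A match here describes letters in a 300-base window only. The median GC content was 60.7% in the windows of these genes and 52.7% in all windows.

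Droplet lipases did not pass. Pnpla2, adipose triglyceride lipase, removes the first fatty acid from triglyceride and was at 256.7, 224.6 and 222.7 CPM in the WT mice against 193.3, 241.8 and 260.2 CPM in the 113Q mice (log2 fold change -0.02, SE 0.12, adjusted p = 0.928). Lipe, hormone-sensitive lipase, which acts on diglyceride, was at 33.9, 23.1 and 50.8 CPM in the WT mice against 22.8, 33.2 and 41.0 CPM in the 113Q mice (adjusted p = 0.772). Groups overlapped for both. Their ratio differed by -0.09 on the log2 scale (exact permutation p = 0.9).

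**Figure D3:**
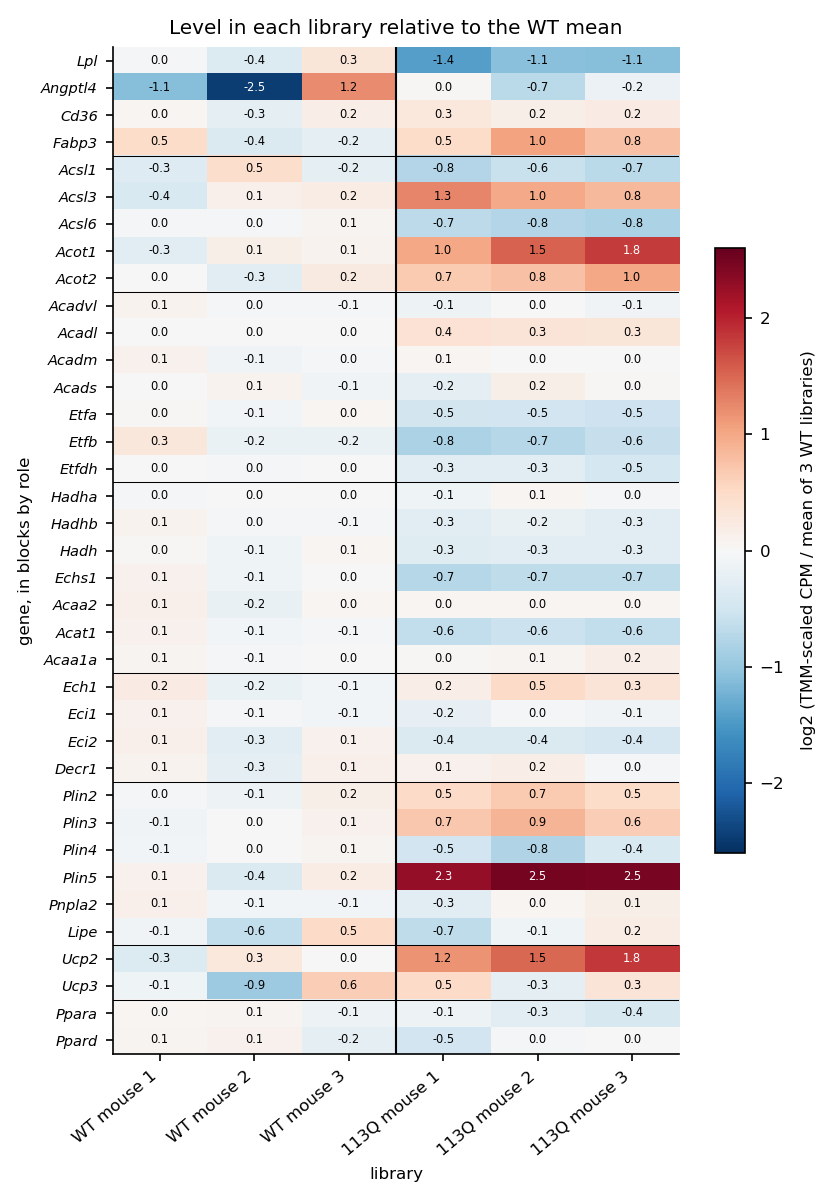
Level of each of the 37 genes (rows, in blocks by role) in each of the 6 libraries (columns) as log2 of TMM-scaled CPM over the WT mean. Plin5 has the deepest 113Q columns, while Angptl4, Lipe and Ucp3 vary among the WT columns.

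Uncoupling proteins are carriers of the inner mitochondrial membrane. Ucp2, widely expressed and prominent in immune cells, was at 10.1, 15.7 and 12.8 CPM in the WT mice against 28.8, 36.0 and 46.1 CPM in the 113Q mice, a 2.86-fold rise (log2 fold change 1.52, SE 0.22, adjusted p = 0.00185). All 3 libraries of 113Q exceeded all of WT. The summed level of 8 macrophage markers was 109.1 to 143.9 CPM in the WT mice against 123.9 to 140.1 CPM in the 113Q mice. In edgeR, 0 of 8 passed and 0 of them had an unadjusted p below 0.05. Their median log2 fold change was 0.12. With library totals alone it was 0.83, beside 0.73 for all genes tested and 2.23 for Ucp2. Their part in the Ucp2 rise was not tested. Ucp3, the uncoupling protein of skeletal muscle, was at 53.2, 29.6 and 88.4 CPM in the WT mice against 80.6, 47.7 and 71.9 CPM in the 113Q mice, with overlapping groups (adjusted p = 0.739). Ucp3 to Ucp2 was 4.09 in WT mice and 1.80 in 113Q mice, and these ratios overlapped between groups (exact permutation p = 0.2, adjusted 0.333). Ucp2 shares 305 exon bases with Dnajb13 on the other strand, and without strand information reads from this stretch could belong to either gene.

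Ucp3 and Ucp2 lie in that order on the plus strand of chromosome 7, 6.9 kb apart. Their start windows (chr7:100472741-100473040 and chr7:100493108-100493407, GRCm38.p6, plus strand) are given for the contrast between the pair, with AGGTCA in capitals.
Ucp3: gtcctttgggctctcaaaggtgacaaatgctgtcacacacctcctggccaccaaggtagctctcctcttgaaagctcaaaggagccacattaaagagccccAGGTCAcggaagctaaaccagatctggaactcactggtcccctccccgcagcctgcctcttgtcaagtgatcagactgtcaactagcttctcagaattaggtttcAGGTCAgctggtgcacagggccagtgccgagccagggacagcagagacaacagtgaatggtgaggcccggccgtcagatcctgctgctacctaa
Ucp2: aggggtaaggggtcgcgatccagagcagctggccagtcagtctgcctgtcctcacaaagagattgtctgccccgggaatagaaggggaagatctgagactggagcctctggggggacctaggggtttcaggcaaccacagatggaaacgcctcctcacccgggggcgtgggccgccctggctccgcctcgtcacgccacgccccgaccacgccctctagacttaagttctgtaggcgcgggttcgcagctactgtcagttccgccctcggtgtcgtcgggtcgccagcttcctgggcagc
AGGTCA occurs at 149 and 44 bases before the start of Ucp3 and nowhere in the Ucp2 window.

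Synthetases activate fatty acids to acyl-CoA and thioesterases undo this, and all 5 of these genes changed. Acsl1, the main synthetase of muscle and fat, was at 267.8, 464.4 and 286.8 CPM in the WT mice against 200.4, 226.4 and 209.4 CPM in the 113Q mice (0.624 of WT, adjusted p = 0.0429). Its call was lost without any 1 of the 113Q mice (adjusted p = 0.123, 0.0931 and 0.12 without mice 1, 2 and 3) and with upper-quartile scaling (0.0529), and the log2 fold change was 0.04 with library totals alone. Acsl6 fell from 67.7 ± 2.73 to 40.2 ± 2.00 CPM (SD, n = 3 each; adjusted p = 0.00022, edgeR), against a log2 fold change of -0.03 with library totals alone. Acsl3, a synthetase of the endoplasmic reticulum and nascent droplets, was at 6.22, 8.96 and 9.30 CPM in the WT mice against 19.6, 16.2 and 14.6 in 113Q mice, a 2.06-fold rise (adjusted p = 0.00297).

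Acsl1, Acsl6 and Acsl3 kept their order per kilobase, at 87.2, 11.7 and 2.07 CPM in the WT mice against 54.4, 6.92 and 4.26 CPM in the 113Q mice. The synthetase Acsl4, outside the 37 genes, was not scaled by length. Its mean was 36.6 CPM in WT and 75.0 CPM in 113Q mice, against 67.7 and 40.2 CPM for Acsl6. The ratio of Acsl6 to Acsl1 did not separate the groups (log2 difference -0.12, exact permutation p = 0.8).

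Acot2, the mitochondrial thioesterase, was at 12.1, 10.1 and 14.3 CPM in the WT mice against 19.5, 20.6 and 24.5 CPM in the 113Q mice and rose 1.77-fold (adjusted p = 0.00374). Acot1, its cytosolic relative, was scarce, with 9, 19 and 18 counts in WT and 58, 84 and 106 in 113Q mice, a 2.77-fold rise (adjusted p = 0.0136) that lost its call without 113Q mouse 2 (0.052) and mouse 3 (0.0664). The 2 genes lie 15.6 kb apart on chromosome 12, and 33.0% of the 50-base words of the Acot1 transcript also occur in transcripts of other genes, mainly Acot2, as do 27.7% of those of Acot2. Counts could be split between these copies, so the Acot1 value is uncertain. The ratio of Acot2 to Acot1 was 36.2 in WT mice and 24.1 in 113Q mice and overlapped between groups (exact permutation p = 0.2).

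Of the 4 genes for entry of fatty acids, 1 fell, Lpl, and 3 did not pass. Lipoprotein lipase releases fatty acids from circulating lipoproteins, and Lpl was at 336.5, 267.1 and 428.8 CPM in the WT mice against 128.0, 161.1 and 160.0 CPM in the 113Q mice. No 113Q library reached the lowest WT library, and the fall was to 0.435 of WT (log2 fold change -1.20, SE 0.18, adjusted p = 0.00205). It was the 1 gene of the 37 still lower with library totals alone past the test (log2 fold change -0.49, adjusted p = 0.0425). Lpl is made by adipocytes as well as muscle, and the part of adipocytes in its difference was not tested. With the summed adipocyte markers as a term in the fit, its log2 fold change was -1.04 (adjusted p = 0.000296).

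Angptl4, a secreted inhibitor of lipoprotein lipase, was at 3.20, 1.25 and 16.3 CPM in the WT mice against 7.09, 4.26 and 6.19 CPM in the 113Q mice, so the WT mice spanned the 113Q mice (adjusted p = 0.873). Its log2 fold change was -0.25, and it was 1.41 without WT mouse 3 (adjusted p = 0.059) and 1.09 with the adipocyte term (0.444). Cd36, a fatty acid translocase of myofibres, capillaries and adipocytes, was at 337.1, 274.6 and 368.9 CPM in the WT mice against 394.7, 363.8 and 376.8 CPM in the 113Q mice (log2 fold change 0.21, SE 0.11, adjusted p = 0.191). It passed with the epithelial term (log2 fold change 0.30, adjusted p = 0.0459) and with library totals alone (0.93, adjusted p = 0.00024). Fabp3, the heart and muscle fatty acid binding protein, was at 48.1, 26.8 and 29.4 CPM in the WT mice against 48.3, 71.7 and 58.9 CPM in the 113Q mice. The lowest 113Q value barely exceeded the highest WT value, and the 1.72-fold difference did not pass (adjusted p = 0.0619), though it did in DESeq2 (0.00197), in limma voom (0.0118), without robust estimation (0.0384), with upper-quartile scaling (0.0486), without WT mouse 1 (0.00574) and with library totals alone (0.00213). Of its 50-base words, 37.3% also occur in other genes, mainly the pseudogene Fabp3-ps1.

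Of the entry genes, Lpl alone was called lower, and endothelial markers were lower too. All 10 were lower in 113Q (median log2 fold change -0.63, against 0.09 with library totals alone), from 486.8 to 601.8 CPM summed in WT to 338.4 to 353.4 CPM, with Pecam1 at 110.1, 115.2 and 95.7 CPM in the WT mice against 62.6, 60.6 and 61.7 CPM in the 113Q mice. Their part in the Lpl difference was not tested, and in bulk muscle fewer cells of a type and less RNA per cell cannot be told apart.

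**Figure D4:**
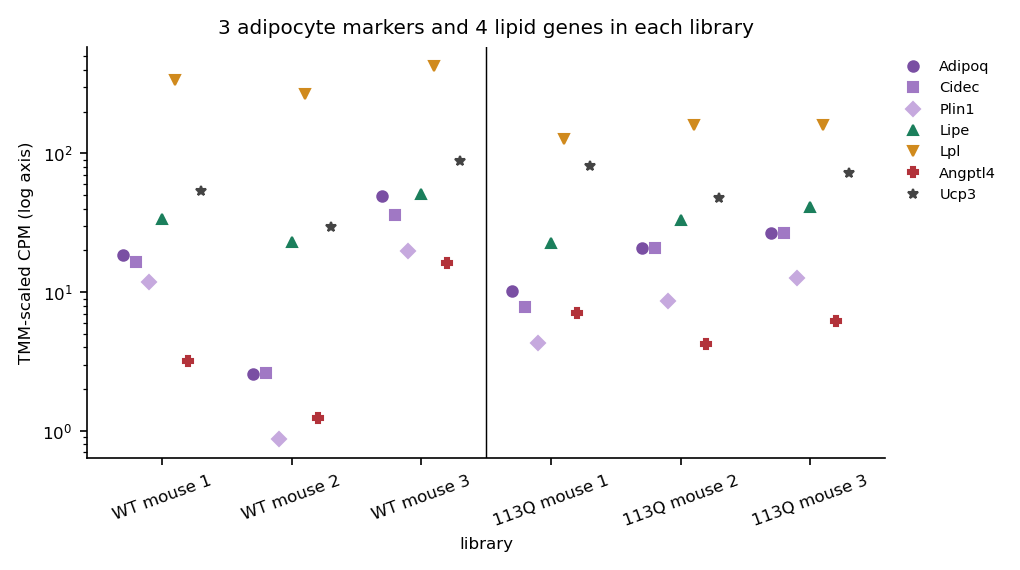
TMM-scaled CPM on a log axis of 3 adipocyte markers (Adipoq, Cidec, Plin1) and of Lipe, Lpl, Angptl4 and Ucp3 in each library. Adipoq spans 2.58 to 49.7 CPM among WT mice, with Lipe, Lpl, Angptl4 and Ucp3 lowest in WT mouse 2 and highest in WT mouse 3, while Lpl is below every WT value in all 113Q mice.

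Adipocyte markers varied among mice along with Lipe, and their part in the results on Lipe, Angptl4 and Ucp3 was not tested. Adipoq, the adipocyte hormone adiponectin, was at 18.4, 2.58 and 49.7 CPM in the WT mice against 10.3, 21.0 and 26.6 CPM in the 113Q mice, and Lipe had the same order of mice within each group. Of the 8 white adipocyte markers 1 fell (Fabp4) and 7 did not pass. Fabp4 made up much of the marker sum behind the adipocyte term, so the term partly follows a gene called lower in 113Q. With the adipocyte term, 8 genes of fat handling rose and 9 fell, and Hadhb, Hadh and Eci2 lost their calls (adjusted p = 0.0926, 0.0555 and 0.0606). Lipe was at a log2 fold change of 0.13 in that fit (adjusted p = 0.335), against -0.15 without the term. Plin5 was at 2.55 and Plin4 at -0.54 in it, both still called.

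Of the 4 acyl-CoA dehydrogenases, which open each turn of the cycle, Acadl rose and 3 did not pass. Acadl, for long chains, was at 292.5, 294.8 and 290.3 CPM in the WT mice against 377.1, 366.9 and 362.6 CPM in the 113Q mice. Replicates lay within a few percent of each other and the 1.26-fold rise passed (log2 fold change 0.33, SE 0.07, adjusted p = 0.00813), though not the test against a fold of 1.2 (adjusted p = 0.18). Acadvl, for very long chains, was at 533.4 ± 33.2 CPM in the WT mice against 504.7 ± 23.6 in 113Q mice (SD, n = 3 each; edgeR adjusted p = 0.51). Acadm, for medium chains, was at 468.3, 408.2 and 428.6 CPM in the WT mice against 450.6, 434.2 and 438.9 CPM in the 113Q mice (adjusted p = 0.873). Acads, for short chains, was at 145.6, 156.1 and 136.4 CPM and at 123.5, 163.0 and 150.1 CPM (adjusted p = 0.979).

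Within libraries, the log2 ratio of Acadl to Acadm was -0.68, -0.47 and -0.56 in WT and -0.26, -0.24 and -0.28 in 113Q mice. This ratio was higher in every 113Q library and does not depend on scaling, with a fold of 1.24 (exact permutation p = 0.1, adjusted 0.25). Per kilobase the level was 246 CPM for Acadvl, 213 for Acadm, 153 for Acadl and 78.1 CPM for Acads in the WT mice against 233, 216, 193 and 77.8 CPM in the 113Q mice. Acadvl shares 976 exon bases with Dvl2 on the opposite strand, which leaves its count uncertain without strand information.

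The electron transfer flavoprotein accepts electrons from all 4 dehydrogenases and passes them to ubiquinone through Etfdh. All 3 of its genes fell relative to other genes, though with library totals alone their log2 fold changes were 0.01 to 0.38. Etfa, the alpha subunit, was at 307.5, 283.4 and 308.4 CPM in the WT mice against 214.3, 213.2 and 207.7 CPM in the 113Q mice (0.706 of WT, adjusted p = 0.00157). Etfb, the beta subunit, was at 301.3, 219.2 and 220.1 CPM and at 140.0, 148.5 and 162.8 CPM (0.609 of WT, adjusted p = 0.00469). Etfdh was at 195.8, 187.7 and 195.7 CPM and at 156.8, 158.7 and 140.5 CPM (0.787 of WT, adjusted p = 0.0111), and lost its call without 113Q mouse 3 (0.0585). In none of the 3 did a 113Q library reach the lowest WT library. The Etfa to Etfb ratio was 1.23 in WT and 1.41 in 113Q, with overlapping groups (exact permutation p = 0.3). For Etfb, 67.3% of 50-base words also occur in Gm45233, an overlapping gene on the same strand.

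Of the 7 genes of later steps, 4 fell and 3 did not pass, and with library totals alone the log2 fold changes of those 4 were 0.04 to 0.47. Hydration of short chains is done by Echs1, which was at 211.7, 181.2 and 193.2 CPM in the WT mice against 117.3, 123.8 and 124.2 CPM in the 113Q mice (0.623 of WT, SE 0.08 on the log2 scale, adjusted p = 0.000581). Hadh, the dehydrogenase for medium and short hydroxyacyl-CoA, was at 292.7, 264.8 and 296.8 CPM and at 229.3, 234.2 and 234.2 CPM (0.817 of WT, adjusted p = 0.0215). Its call was lost without any mouse but WT mouse 2 (adjusted p = 0.0511 and 0.0802 without WT mice 1 and 3, and 0.0605, 0.0731 and 0.0755 without 113Q mice 1, 2 and 3). Acat1, the mitochondrial acetoacetyl-CoA thiolase, was at 548.0, 481.4 and 487.3 CPM in the WT mice against 323.9, 345.3 and 324.0 CPM in the 113Q mice (0.655 of WT, adjusted p = 0.00109). With library totals alone the log2 fold changes of Echs1, Hadh and Acat1 were 0.04, 0.43 and 0.11. Acaa2, the medium-chain thiolase of mitochondria, was at 198.0 ± 22.8 and 204.1 ± 0.720 CPM (SD, n = 3 each; edgeR adjusted p = 0.759). Acaa1a, the thiolase of peroxisomes, was at 68.2, 62.6 and 64.5 CPM in the WT mice against 66.5, 68.9 and 73.8 CPM in the 113Q mice (adjusted p = 0.362), and 35.1% of its 50-base words occur in other genes, mainly its copy Acaa1b.

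Hadha and Hadhb encode the alpha and beta chains of the trifunctional protein, which carries out the last 3 reactions for long chains. Hadha was at 413.6, 427.4 and 425.2 CPM in the WT mice against 392.2, 438.2 and 409.0 CPM in the 113Q mice (adjusted p = 0.797). Hadhb was at 412.6, 374.5 and 373.7 CPM and at 321.2, 338.2 and 318.0 CPM, a fall to 0.842 of WT that only just passed (adjusted p = 0.0443). The Hadhb call was lost without each of the 6 mice in turn (adjusted p = 0.055 to 0.148), and its log2 fold change was 0.47 with library totals alone. The ratio of Hadha to Hadhb was 0.00, 0.19 and 0.19 on the log2 scale in WT and 0.29, 0.37 and 0.36 in 113Q mice, higher in every 113Q library, with a fold of 1.16 (exact permutation p = 0.1, adjusted 0.25). Of the 50-base words of Hadhb, 62.4% also occur in transcripts of other genes, mainly Gm13910, so its count could be shared with these.

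The 2 genes are divergent neighbours on chromosome 5, with RefSeq starts 273 bases apart. Their windows share 228 bases, and that of Hadhb (chr5:30155003-30155302, GRCm38.p6, plus strand) is shown because it overlaps that of Hadha. Neither AGGTCA nor the NRF1 motif, present in 8.11% of the windows of these genes and 4.60% of all, was found in it.
Hadhb: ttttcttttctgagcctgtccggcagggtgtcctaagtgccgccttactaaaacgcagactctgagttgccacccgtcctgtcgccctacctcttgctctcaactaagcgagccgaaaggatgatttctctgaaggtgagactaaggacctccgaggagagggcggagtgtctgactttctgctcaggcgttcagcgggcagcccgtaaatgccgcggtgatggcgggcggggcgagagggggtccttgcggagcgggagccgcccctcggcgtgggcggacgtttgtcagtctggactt

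Among auxiliary enzymes for unsaturated fatty acids, 1 of 4 changed. Eci2, an enoyl-CoA isomerase of peroxisomes and mitochondria, was at 198.3, 149.3 and 193.7 CPM in the WT mice against 139.2, 139.1 and 133.9 CPM in the 113Q mice (0.762 of WT, adjusted p = 0.0279), with a log2 fold change of 0.33 with library totals alone. It lost its call without any mouse but WT mouse 2 (adjusted p = 0.0824 and 0.0921 without WT mice 1 and 3, and 0.0723, 0.0808 and 0.0994 without 113Q mice 1, 2 and 3). Ech1, a dienoyl-CoA isomerase, was at 397.4, 304.1 and 326.9 CPM in the WT mice against 385.3, 486.6 and 435.5 CPM in the 113Q mice (1.27-fold, adjusted p = 0.0668), and passed in DESeq2 (0.0306), in limma voom (0.0166), with upper-quartile scaling (0.0398), without WT mouse 1 (0.0257) or 113Q mouse 1 (0.0477), and with library totals alone (0.000108). Eci1, the mitochondrial isomerase, was at 128.5 ± 9.02 and 118.7 ± 6.82 CPM (SD, n = 3 each; edgeR adjusted p = 0.341). Decr1, the dienoyl-CoA reductase, was at 167.4 ± 23.5 and 177.0 ± 12.4 CPM (SD, n = 3 each; edgeR adjusted p = 0.628). Ech1 was the most abundant gene of the 37 per kilobase in 113Q (344 CPM) and second to Etfb in WT (271 against 276 CPM).

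Neither nuclear receptor passed. Ppara, the receptor that drives fatty acid oxidation, was at 18.4, 18.9 and 16.4 CPM in the WT mice against 16.2, 14.7 and 13.4 CPM in the 113Q mice, without overlap (log2 fold change -0.28, SE 0.11, adjusted p = 0.0899). Ppard, the PPAR form prominent in muscle, was at 42.4, 43.6 and 34.3 CPM and at 28.5, 39.3 and 39.99 CPM (adjusted p = 0.46). Their ratio did not separate the groups (log2 difference -0.11, exact permutation p = 0.8). Over the 37 genes, groups did not overlap for 9 as higher and 13 as lower in 113Q, beside 25.1% and 24.8% of all genes tested.

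**Figure D5:**
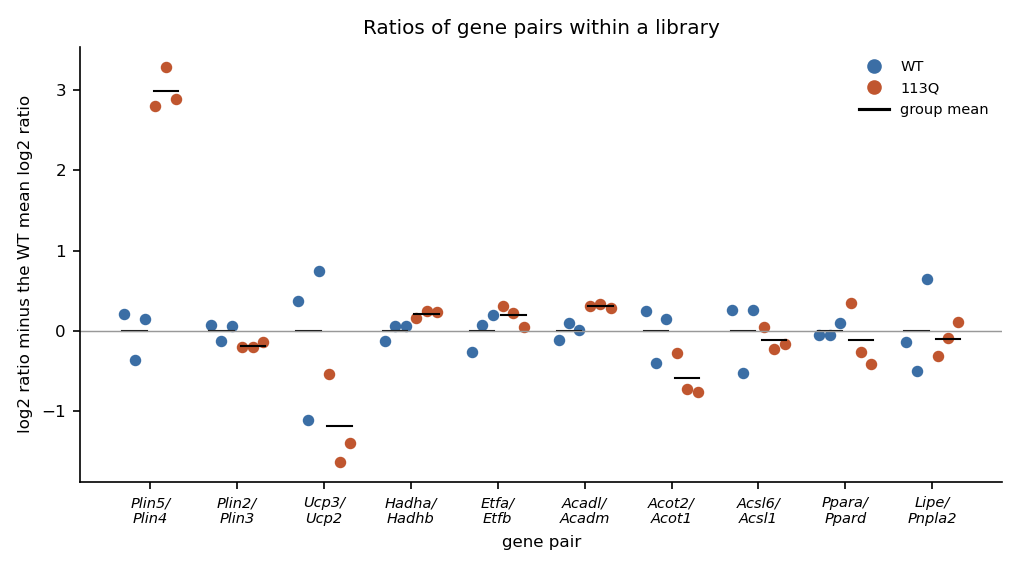
Log2 ratio of 10 gene pairs in each library minus the WT mean of that ratio (points, with group means as lines). The pair Plin5/Plin4 is separated by 3.00, Acadl/Acadm by 0.31 and Hadha/Hadhb by 0.21, while Etfa/Etfb, Acsl6/Acsl1, Ppara/Ppard and Lipe/Pnpla2 overlap between groups.

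Of 10 genes of the carnitine shuttle and malonyl-CoA control, 2 rose, 3 fell and 5 did not pass, with a median log2 fold change of 0.15. Cpt1a, the liver-type carnitine palmitoyltransferase, was at 10.7, 10.4 and 16.9 CPM in the WT mice against 38.8, 34.2 and 37.5 CPM in the 113Q mice (2.91-fold, adjusted p = 0.000813). Slc25a20, the acylcarnitine carrier, rose 1.27-fold (adjusted p = 0.00545), and Crat, carnitine acetyltransferase, fell from 942.3, 1043 and 872.1 CPM to 366.9, 498.5 and 458.4 CPM (adjusted p = 0.000429). Of 15 peroxisomal genes tested among 16 listed, 7 rose, 3 fell and 5 did not pass (median 0.29). Hacl1, which cleaves branched and hydroxylated chains, rose 2.37-fold, and the peroxisomal oxidase Acox3 and bifunctional enzyme Hsd17b4 rose 1.58-fold and 1.53-fold (adjusted p = 0.000227, 0.000396 and 0.000717). Of 8 other acyl-CoA dehydrogenases, 3 fell and 5 did not pass: Acad8, of valine breakdown, Acad9, an assembly factor of complex I, and Ivd, of leucine breakdown, fell by 0.64, 0.55 and 0.32 on the log2 scale but were at 0.08, 0.17 and 0.40 with library totals alone, and the Ivd call (adjusted p = 0.0495) was lost without every mouse but 113Q mouse 2.

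Of 14 other genes of fatty acid uptake and activation, 4 rose, 5 fell and 5 did not pass. Vldlr, a lipoprotein receptor, was at 212.4, 258.7 and 182.5 CPM in the WT mice against 71.7, 71.5 and 60.7 CPM in the 113Q mice (log2 fold change -1.68, adjusted p = 8.84e-05), the thioesterase Acot13 had a log2 fold change of -0.78 and the synthetase Acsl4 one of 1.03. Slc27a1, a fatty acid transport protein chosen after its values were seen, was at 27.6, 22.2 and 28.6 CPM in the WT mice against 73.6, 123.5 and 109.6 CPM in the 113Q mice (adjusted p = 0.000582). Of 19 genes of triglyceride synthesis and the droplet, 4 rose and 3 fell while 12 were not called, and the lipins, phosphatidate phosphatases, split: Lpin1 was at 321.8, 383.2 and 298.6 CPM in the WT mice against 162.9, 156.6 and 166.1 CPM in the 113Q mice (adjusted p = 0.00021), while the scarcer Lpin2 and Lpin3 rose 3.04-fold and 2.20-fold (adjusted p = 0.000776 and 0.00161).

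Among genes of ketone body use, Oxct1, which activates ketone bodies for use, was at 63.5, 110.6 and 82.4 CPM in the WT mice against 203.6, 188.8 and 209.2 CPM in the 113Q mice (adjusted p = 0.00258). Slc16a1, a monocarboxylate transporter, fell from 115.3 to 122.9 CPM in WT to 37.1 to 41.2 CPM in the 113Q mice (adjusted p = 9.7e-06). Of 11 PPAR partners and responsive genes tested among 14 listed, 1 rose, 3 fell and 7 did not pass. The 3 that fell were the retinoid X receptors: Rxrg was at 108.6, 130.8 and 88.8 CPM in the WT mice against 35.8, 38.1 and 36.5 CPM in the 113Q mice (adjusted p = 0.000112), and Rxra and Rxrb fell by 0.54 and 0.45 on the log2 scale but were at 0.18 and 0.27 with library totals alone.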

How the data were processed

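The members and gene lists were chosen with earlier results of these data known. The authors deposited 1 table of estimated counts per gene for 27131 genes in 6 libraries, which the submitters' processing notes tie to Cuffdiff 2.1.1, and those notes also name TopHat2 2.0.9, Bowtie2 2.1.0, FastQC 0.10.0, cutadapt, Cufflinks and mm10. The sources used here give no annotation, read length or strand setting. Values were rounded (5.38% to 5.96% of a library's values were fractional). Groups follow the labels, where mice are separate animals and no batch is named.

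Counts were tested in edgeR 4.0.16 (R 4.3.3) over the whole table: filterByExpr with minimum count 10, TMM factors, and a robust two-sided quasi-likelihood F test with Benjamini-Hochberg adjustment at 0.05. Standard errors are the log2 fold change over the square root of F. Within-library ratios added 0.5 to each count. The edgeR, DESeq2 1.42.0 and limma 3.58.1 fits were tested on simulated data. These had as many rises as falls and no built-in shift in scaling between groups, so they do not test the choice of scaling.

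Named genes are all 37 members, up to 3 genes of each other pathway list with the smallest p, and the leading gene of each marker list. The result for another gene that this rule names is not reported here. Of the marker lists, the brown adipocyte list had Ucp1 at 0 counts in all libraries, with 1 of 3 tested genes higher and 2 lower, and smooth muscle had 1 of 6 higher, Acta2. The 8 macrophage markers (Adgre1 first, at 2.99 to 4.68 CPM in WT) and 8 epithelial markers had 0 called, and all 8 myofibre markers were lower. Positions, transcript lengths and shared 50-base words come from GENCODE M21 on GRCm38, the assembly of mm10. Alternatives were DESeq2, limma voom, other scaling, filters and thresholds, no robust estimation, a replicate block, terms for epithelial or adipocyte transcripts, and leaving out each mouse.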

Additional observations from a re-analysis of the deposited data

How the results depend on the processing

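Of the 20 genes called, 13 kept direction and call in every alternative run but library totals, and 0 reversed there. The other 7 were Acsl1, Acot1, Acadl, Etfdh, Hadhb, Hadh and Eci2. With library totals 27 members were higher and 1 lower, with 11015 for all genes higher in 113Q and 710 for all genes lower in 113Q, and the members' median log2 fold change was 0.69. At an adjusted p of 0.01, 7 members were lower, and 1462 genes were higher and 1962 lower. Against a fold of 1.2, 7 members were lower, and 1752 genes were higher and 2041 lower. Leaving out each mouse gave 7 to 10 members higher, 7 to 11 lower (7 without 113Q mouse 3), 2004 to 2559 genes higher, 2312 to 2843 lower, and medians of -0.09 to 0.01 (0.01 without 113Q mouse 1). The median was 0.01 with upper-quartile factors and 0.02 with the adipocyte term.

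With library totals the log2 fold change reversed for Angptl4 (0.46), Acsl1 (0.04), Acadvl (0.64), Acads (0.71), Etfa (0.22), Etfb (0.01), Etfdh (0.38), Hadha (0.69), Hadhb (0.47), Hadh (0.43), Echs1 (0.04), Acat1 (0.11), Eci1 (0.61), Eci2 (0.33), Plin4 (0.17), Pnpla2 (0.70), Lipe (0.55), Ppara (0.45), Ppard (0.56), Acad8 (0.08), Acad9 (0.17), Ivd (0.40), Rxra (0.18) and Rxrb (0.27). Elsewhere only genes that had not passed reversed, and the cause was not tested. Angptl4 was 0.51 with the replicate block, 0.70 with the epithelial term, 1.09 with the adipocyte term and 1.41 without WT mouse 3 (-0.75 to 1.41 leaving out each mouse). Acads was 0.08 in limma voom, 0.04 with upper-quartile factors, 0.02 with no filter, 0.05 without WT mouse 2 and 0.11 without 113Q mouse 1 (-0.09 to 0.11). Pnpla2 was 0.06 in limma voom, 0.02 with upper-quartile factors, 0.00 with no filter, 0.02 with the adipocyte term, and 0.05 and 0.10 without WT mouse 1 and 113Q mouse 1 (-0.10 to 0.10). Hadha was 0.01 with upper-quartile factors and 0.01 without 113Q mouse 1 (-0.07 to 0.01). Lipe was 0.13 with the adipocyte term, 0.18 without WT mouse 3 and 0.05 without 113Q mouse 1 (-0.39 to 0.18). Without WT mouse 2, Acadm was -0.02 (to 0.08), Acaa2 -0.05 (to 0.11), Decr1 -0.03 (to 0.15) and Ucp3 -0.09 (to 0.69). Leaving out each mouse, the ratio of Acsl6 to Acsl1 ranged from -0.38 to 0.02, of Ppara to Ppard from -0.34 to 0.04 and of Lipe to Pnpla2 from -0.35 to 0.23. Acot1 was not tested under the filter of 1 CPM.

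Same-numbered mice correlated at 0.115, 0.159 and -0.291 in their deviations from the group means, beside -0.352 to 0.33 for mice with different numbers. The labels state no pairing, and with 3 mice per group these correlations cannot decide whether mice were paired. With the replicate block 8 members were higher and 9 lower, with 2154 for all genes higher in 113Q and 2583 for all genes lower in 113Q, and Hadhb, Hadh and Eci2 lost their calls (adjusted p = 0.0937, 0.0562 and 0.0546). Acot1, at 9 to 19 counts in WT mice, is the member whose precision is most limited by depth.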

Other observations

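Among WT mice, mouse 3 stood apart for several metabolic genes, a set chosen after its values were seen. Pdk4, the kinase that restrains pyruvate dehydrogenase, was at 113.0, 96.0 and 258.8 CPM in WT mice 1, 2 and 3, with 211.7, 172.4 and 192.8 CPM across the 113Q mice. Txnip, an inhibitor of thioredoxin, was at 192.4, 138.9 and 448.0 CPM among WT mice, with 169.6, 160.7 and 167.5 CPM across the 113Q mice. Klf10, a zinc finger transcription factor, was at 16.7, 13.7 and 65.0 CPM among WT mice, with 22.7, 19.8 and 25.4 CPM across the 113Q mice. Acacb, the mitochondrial acetyl-CoA carboxylase, was lowest in the same mouse, at 349.5, 377.8 and 223.1 CPM among WT mice, with 311.5, 392.1 and 359.8 CPM across the 113Q mice. None of these 4 genes passed between groups.

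Of the 4 genes listed as brown adipocyte markers, 1 rose, 2 fell and Ucp1 was not tested. Which cells expressed these genes was not tested. Cidea, a droplet protein of brown adipocytes, was at 3.23, 1.45 and 3.87 CPM among WT mice and at 12.5, 8.19 and 10.4 CPM among 113Q mice (edgeR adjusted p = 0.00662). Elovl3, a fatty acid elongase, was at 0.829, 1.70 and 0.905 CPM among WT mice and at 0.346, 0.291 and 0.526 CPM among 113Q mice (adjusted p = 0.0188). Ppargc1b, a transcriptional coactivator, was at 8.38, 9.08 and 8.14 CPM among WT mice and at 3.35, 4.08 and 3.51 CPM among 113Q mice (adjusted p = 0.00056). Ucp1 had 0 counts in all 6 libraries. Cidec, the droplet protein of white adipocytes, was at 16.5, 2.604 and 36.0 CPM among WT mice and at 7.78, 21.0 and 26.9 CPM among 113Q mice, and did not pass.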
